A study of Mus musculus with 4 samples.

Results

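Checkpoint-treated tumours of the mouse mammary model T11-Apobec were compared with checkpoint-treated tumours of the model KPB25Luv, cell class by cell class. Both models are triple-negative breast cancer lines injected into the number 4 mammary gland of female mice, T11-Apobec in a strain labelled Balbc and KPB25Luv in FVB/NJ. All animals of both groups received antibodies to PD1 at 10 mg/kg and to CTLA4 at 100 µg. Doses were given biweekly once tumours measured 5 mm across, and the tissue was collected after 7 days of therapy. Each group was 1 library of dissociated tumour, made with the 10x Genomics 3' v2 chemistry. The number of animals behind a library and the ages are not given in the labels. Mouse strain and tumour line changed together between the groups, so that the part of each cannot be told apart. With 1 library per group there was no replicate check and no test, and every interval below is a 95% interval for counting error only.

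Cells were kept when they had at least 200 detected genes, at least 500 unique molecular identifiers (UMIs) and at most 10% mitochondrial UMIs. The treated T11-Apobec library kept 6131 of 6504 barcodes, with a median of 4143 UMIs and 1463 genes per cell. The treated KPB25Luv library kept 5273 of 5509, with medians of 3866 UMIs and 1393 genes. Together these were 11404 of the 28200 cells kept in the 4 libraries of the study, which also held untreated tumours of both models. Each cell was assigned to a class by at least 2 UMIs of that class's markers, for example Cd3d, Cd3e, Cd3g and Trac for T cells. Plasma cells needed at least 5. The 2 treated libraries shared 34 cell barcodes.

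PD1 and CTLA4 are inhibitory receptors of T cells, and antibodies that block them release T cell activation and killing in tumours. Cytotoxic T cells and natural killer (NK) cells kill through perforin and granzymes and secrete interferon-gamma, which raises antigen presentation in neighbouring cells. B cells can become antibody-secreting plasma cells with help from follicular helper T cells. Monocytes enter the tumour from the blood and mature there into macrophages, which clear debris and can restrain or attract T cells.

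The treated T11-Apobec tumour held relatively more monocytes/macrophages, NK cells and B cells, and relatively fewer T cells and plasma cells, among its immune cells than the treated KPB25Luv tumour. T cells were 2650 of 5433 immune cells in T11-Apobec, 48.8% (Clopper-Pearson interval 47.4 to 50.1%), against 3278 of 5156 in KPB25Luv, 63.6% (62.3 to 64.9%). Monocytes/macrophages were 12.2% (11.4 to 13.1%, 664 cells) in T11-Apobec and 2.33% (1.93 to 2.78%, 120 cells) in KPB25Luv, a 5.25-fold difference. NK cells were 5.98% (5.37 to 6.65%, 325 cells) in T11-Apobec and 1.20% (0.923 to 1.54%, 62 cells) in KPB25Luv, a 4.97-fold difference. For all of these classes the intervals did not overlap.

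B cells were 13.8% (12.9 to 14.8%, 752 cells) of immune cells in T11-Apobec and 9.0% (8.23 to 9.81%, 464 cells) in KPB25Luv. Plasma cells were 0.755% (0.542 to 1.02%, 41 cells) in T11-Apobec and 1.47% (1.16 to 1.84%, 76 cells) in KPB25Luv. The plasma cell intervals also lay apart, on few cells. Many cells of this class held few heavy chain UMIs, and such cells took a larger part of the class in KPB25Luv, as given below. They were not set apart, so the shares of cells with many heavy chain UMIs were not compared. The shares of T and B cells depended on how cells with markers of more than 1 class were handled. With class markers at 1 UMI and none of any other class, the log2 ratio of T cell shares, T11-Apobec over KPB25Luv, was -0.03 in place of -0.38. The same setting gave 1.22 in place of 0.62 for B cells.

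The untreated libraries differed in the same direction for most classes. There the log2 ratio of shares, T11-Apobec over KPB25Luv, was -2.16 for T cells, 3.02 for NK cells, 2.07 for monocytes/macrophages and 0.08 for B cells. In the treated libraries the same ratios were -0.38, 2.32, 2.39 and 0.62. The untreated shares include cells that also carried at least 5 UMIs of epithelial and mesenchymal markers. Such cells were 28 of 401 untreated T cells in T11-Apobec and 1069 of 2000 in KPB25Luv. Among untreated monocytes/macrophages they were 326 of 2814 and 374 of 749 in the same order. Untreated share ratios without these cells are not given here. The treated and untreated ratios were not tested against each other.

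**Figure D1:**
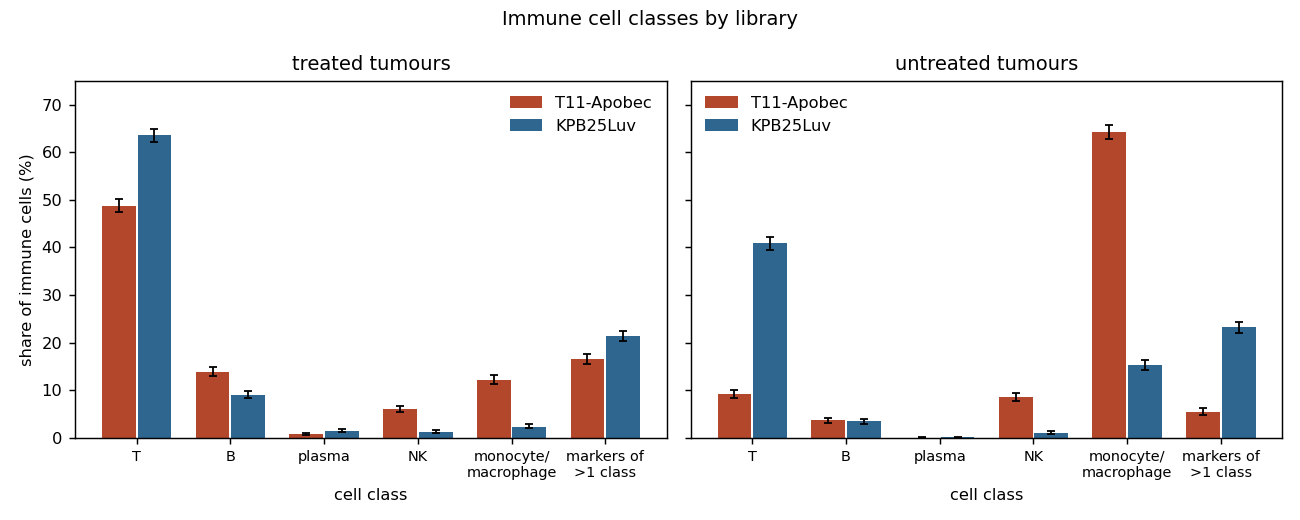
Share of immune cells (%, vertical axis) in each cell class (horizontal axis) for T11-Apobec and KPB25Luv, treated on the left and untreated on the right. Bars are the share in 1 library and error bars the exact 95% interval. Immune cells that also carried epithelial or mesenchymal markers are included. Monocytes/macrophages were 12.2% in treated T11-Apobec and 2.33% in treated KPB25Luv.

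Cells with markers of more than 1 class made up 16.5% of immune cells in T11-Apobec (898 cells) and 21.4% in KPB25Luv (1101 cells), and they were left out of the classes. Their makeup differed between the libraries. In T11-Apobec 429 of them carried T and NK cell markers, and Klre1, an NK receptor chain, gave 65.1% of the NK marker UMIs in the 455 cells with both kinds of markers, other classes' markers allowed. In KPB25Luv 618 carried T cell and monocyte markers, and Ms4a6c, a membrane protein of monocytes, gave 84.1% of the monocyte marker UMIs in the 698 cells with both kinds, other classes' markers allowed. In T cells Ms4a6c stood at 18.3 CPM in T11-Apobec and 61.3 CPM in KPB25Luv, and without Ms4a6c as a marker the log2 ratio of T cell shares was -0.58. CPM here means UMIs of a gene per 1000000 UMIs of the class.

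The markers used for a check of the classes were present where they belonged. All 10 further T cell genes were detected in the T cells of both libraries, with a summed 3824 CPM in T11-Apobec and 5465 CPM in KPB25Luv. Cells with tumour and stromal markers were unequal between the libraries. Cells with mesenchymal markers were 546 in T11-Apobec and 8 in KPB25Luv, and cells with epithelial markers 51 and 28. Among T cells, 140 of 2650 in T11-Apobec and 32 of 3278 in KPB25Luv also carried at least 5 UMIs of these tumour and stromal markers. Those cells held 28.2% of the T cell UMIs in T11-Apobec and 5.65% in KPB25Luv. Most T cell lists and some of the genes below are therefore also given without them. Other genes, such as Cd28, Cd160 and Btla, are given with all T cells only. Untreated gene values below leave out such cells in every class, whereas treated values include them unless stated.

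A small set of genes lay 2-fold apart in the same direction in T cells, B cells and monocytes/macrophages. Of 4848 genes measured in T cells, B cells and monocytes/macrophages alike, 32 (0.66%) were at least 2-fold higher in T11-Apobec in all of them, and 24 (0.495%) at least 2-fold lower. H2-Eb1, the beta chain of the class II molecule I-E, led the higher genes. It lies on the plus strand at chr17:34305867-34316674 (GRCm38). In monocytes/macrophages it had 7249 CPM in T11-Apobec and 124 CPM in KPB25Luv, in B cells 4301 and 203 CPM in the same order, and in T cells 148 and 0.401 CPM. The log2 ratios were 5.86, 4.40 and 8.43. FVB mice carry a major histocompatibility haplotype known not to express I-E, whereas BALB/c mice express it.

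The leading gene at the other end was Gdpd3, a phospholipase D-like enzyme, at chr7:126766334-126775649 (plus strand). In T cells Gdpd3 had 5.47 CPM in T11-Apobec and 328 CPM in KPB25Luv, a log2 ratio of -5.90. It was lower in B cells (-4.12), monocytes/macrophages (-4.73), NK cells (-5.17) and plasma cells (-4.31) too. In the untreated libraries T cells gave log2 ratios of 4.80 for H2-Eb1 and -4.49 for Gdpd3. The whole set was less uniform there. These untreated values leave out cells that carried tumour markers, whereas the set was defined on all treated cells. The part of this unlike filter was not tested. Of the 32 higher genes 21 were measured in untreated T cells, with 7 at least 2-fold higher and 7 of opposite sign, and of the 24 lower genes 23, with 14 at least 2-fold lower and 4 of opposite sign. In untreated monocytes/macrophages 17 of 32 were at least 2-fold higher and 6 of opposite sign, and 18 of 23 were at least 2-fold lower and 3 of opposite sign.

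Other shared genes included Tpm3-rs7, a copy of tropomyosin 3, with log2 ratios of 4.52 in T cells, 4.39 in B cells and 4.23 in monocytes/macrophages. Gbp2b, an interferon-induced GTPase, was 8.96-fold higher in T cells, at least 13.9-fold higher in B cells and 14.2-fold higher in monocytes/macrophages. Both have near-identical relatives among which UMIs could be split. H2-T23, a nonclassical class I molecule, was lower in all 3 classes, with log2 ratios of -2.00, -2.32 and -1.70 in the same order. Reads of both strains had been aligned to the mm10 assembly, and the effect of strain alleles on counting was not tested. Crabp2, Stmn2 and Hmga2 also met the rule in all 3 classes, and their CPM in T11-Apobec was lower without the cells that carried tumour markers. In T cells Crabp2 came to 6.41 CPM in T11-Apobec and 0.365 CPM in KPB25Luv without them, log2 4.03, Stmn2 to 12.8 and 1.46 CPM, log2 3.11, and Hmga2 to 2.40 and 0.304 CPM, log2 2.88. In monocytes/macrophages Hmga2 had a log2 ratio of -0.40 without them.

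In T cells of treated T11-Apobec more cytotoxicity genes were higher than lower, and more costimulatory, follicular helper and regulatory genes were lower than higher. Of 11104 genes with at least 50 UMIs in the 2 libraries, 1185 (10.7%) were at least 2-fold higher in T11-Apobec and 556 (5.01%) at least 2-fold lower. Either way these were 15.7%. Without the cells that carried tumour markers, 479 genes were higher and 371 lower, and the median of all genes was -0.06 rather than -0.04. With cells thinned to 1000 UMIs, 235 were higher and 208 lower. A list is described below by its count of genes past 2-fold and its median, to be read against those values. Its median without tumour-marker cells is given beside it. Counts without those cells belong beside the 850 genes 2-fold apart in that setting, against 1741 with all T cells. The percentage of measured genes in that setting is not given here.

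Of 19 measured cytotoxicity genes, 6 were at least 2-fold higher in T11-Apobec and 2 lower, with a median log2 ratio of 0.89, or 1.21 without tumour-marker cells, where 10 were higher and 1 lower. Gzmk, a granzyme of memory-like and effector CD8 T cells, had 100.2 CPM (95.04 to 106 CPM) in T11-Apobec and 0.975 CPM (0.568 to 1.56 CPM) in KPB25Luv. At least 1 Gzmk UMI was found in 21.1% of T cells in T11-Apobec and 0.305% in KPB25Luv. The ratio was 99.9-fold, a log2 ratio of 6.64 (6.0 to 7.47), the largest of the list. It was 7.02 without tumour-marker cells and 5.19 in the untreated libraries. Gzmk lies at chr13:113171608-113225908 (minus strand, GRCm38).

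Granzyme B, the main apoptosis-inducing granzyme, moved the same way. Gzmb had 399 CPM in T11-Apobec and 108 CPM in KPB25Luv (log2 ratio 1.88, or 2.25 without tumour-marker cells). Gzmc had 26.0 CPM in T11-Apobec and 1.72 CPM in KPB25Luv, log2 3.89, although only 2.83% and 0.732% of T cells held a UMI of it. The death ligand Fasl had 40.6 and 15.8 CPM in the same order, log2 1.36. Perforin (Prf1, 71.3 CPM in T11-Apobec and 37.1 in KPB25Luv), Nkg7 (1380 and 720 CPM) and the chemokine Ccl5 (1600 and 863 CPM) had log2 ratios of 0.94, 0.94 and 0.89. Those 3 passed 2-fold only without the tumour-marker cells, at 1.31, 1.32 and 1.21. Gzmm went the other way, with 7.91 CPM in T11-Apobec and 23 CPM in KPB25Luv, log2 -1.53.

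The Gzmb difference was also one in the share of cells at equal depth. With each T cell thinned to 1000 UMIs, 15.4% of 2578 cells (14.0 to 16.8%) in T11-Apobec and 3.87% of 3152 cells (3.22 to 4.60%) in KPB25Luv held a Gzmb UMI. Before thinning the shares were 23.6% and 7.69%. In thinned B cells, which should lack Gzmb, the share was 0.673% in T11-Apobec and 0.649% in KPB25Luv, which is the background level of such UMIs. Thinning left out 72 T cells in T11-Apobec and 126 in KPB25Luv.

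Inhibitory receptors did not move as a block. Of 14 measured genes of the inhibitory and exhaustion list, 3 were at least 2-fold higher and 6 lower, with a median of -0.46 and -0.16 without tumour-marker cells. Pdcd1, which encodes the antibody target PD1, had 170 CPM (163 to 177 CPM) in T11-Apobec and 80.2 CPM (76.1 to 84.5 CPM) in KPB25Luv, log2 1.08. Ctla4, the other target, had 40.6 CPM (37.3 to 44.04 CPM) in T11-Apobec and 116 CPM (111 to 121 CPM) in KPB25Luv, log2 -1.51. The 2 targets therefore lay on opposite sides, and they stayed so without tumour-marker cells, at 1.46 and -1.13.

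Havcr2, encoding the inhibitory receptor TIM-3, had 22.1 CPM in T11-Apobec and 6.60 CPM in KPB25Luv, log2 1.74. The ectonucleotidase Entpd1, also found on exhausted T cells, had a log2 ratio of 1.14. Lag3 (90.4 CPM in T11-Apobec and 81.8 in KPB25Luv) and the exhaustion factor Tox (54.9 and 51.8 CPM) were within 2-fold. Cd160 was lower, with 17.2 CPM in T11-Apobec and 52.4 CPM in KPB25Luv, log2 -1.61. The receptor Btla was lower too, at 8.70 and 25.4 CPM in the same order, log2 -1.54.

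Several costimulatory genes were lower in T11-Apobec. Of 15 measured activation and costimulation genes, 6 were at least 2-fold lower and 0 higher, with a median of -0.83. Without tumour-marker cells 4 were lower and 0 higher, with a median of -0.45. Icos, a costimulator of effector and follicular helper cells, had 61.8 CPM (57.8 to 66.1 CPM) in T11-Apobec and 365 CPM (356 to 374 CPM) in KPB25Luv. Icos UMIs were present in 20.7% of T cells in T11-Apobec and 50.5% in KPB25Luv, and its log2 ratio was -2.56, or -2.19 without tumour-marker cells. Cd28, the receptor for CD80 and CD86, had 150 CPM in T11-Apobec and 439 CPM in KPB25Luv, log2 -1.55. Tnfrsf4 (OX40) had 111 and 248 CPM in the same order, log2 -1.16, but -0.78 without tumour-marker cells. Tnfrsf9 (4-1BB) was within 2-fold, at 87.6 CPM in T11-Apobec and 74.1 CPM in KPB25Luv.

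Of 15 measured follicular helper genes, 9 were at least 2-fold lower and 1, Pdcd1, higher, with a median of -1.26. Without tumour-marker cells 6 were lower and 1 higher, with a median of -0.96. Cxcr5, which guides T cells to B cell follicles, had 6.40 CPM in T11-Apobec and 15.4 CPM in KPB25Luv, log2 -1.26, and -0.96 without tumour-marker cells. In thinned T cells its share was 0.931% (0.597 to 1.38%) in T11-Apobec and 2.16% (1.68 to 2.73%) in KPB25Luv, and the intervals did not overlap. Il4, the helper cytokine for class switching, had 3.31 CPM in T11-Apobec and 17.7 CPM in KPB25Luv, log2 -2.40. Slamf6, an adhesion receptor of helper and progenitor cells, had 79.5 and 201 CPM in the same order, log2 -1.34, and -0.98 without tumour-marker cells. Bcl6, the master regulator of these cells, was near the detection limit, with 1.65 CPM in T11-Apobec and 1.95 CPM in KPB25Luv.

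Of 15 measured regulatory T cell genes, 6 were at least 2-fold lower in T11-Apobec and 0 higher, with a median of -0.92. Without tumour-marker cells 4 were lower and 1 higher, with a median of -0.56. Foxp3, the defining transcription factor, had 14.5 CPM in T11-Apobec and 31.3 CPM in KPB25Luv, log2 -1.11, and -0.71 without tumour-marker cells. At equal depth the shares of T cells with a Foxp3 UMI were 2.83% (2.23 to 3.55%) in T11-Apobec and 3.33% (2.73 to 4.02%) in KPB25Luv, with overlapping intervals. Itgae, the CD103 integrin chain, was further apart, with 12.6 CPM in T11-Apobec and 54.4 CPM in KPB25Luv, log2 -2.11.

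Homing receptors split by gene. Of 15 measured residency and homing genes, 4 were at least 2-fold higher and 3 lower, with a median of -0.60 and -0.19 without tumour-marker cells. Itga1, the collagen-binding CD49a chain, had 33.4 CPM in T11-Apobec and 1.32 CPM in KPB25Luv, log2 4.63, and 5.01 without tumour-marker cells. Itga4, the VLA-4 chain used for entry into inflamed tissue, had 44.4 CPM in T11-Apobec and 11.3 CPM in KPB25Luv, log2 1.97. Ccr10, a skin-homing receptor, was 21.5-fold lower, with 2.16 CPM in T11-Apobec and 47.1 CPM in KPB25Luv. Its log2 ratio was -4.02 without tumour-marker cells and -3.29 in the untreated libraries.

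**Figure D2:**
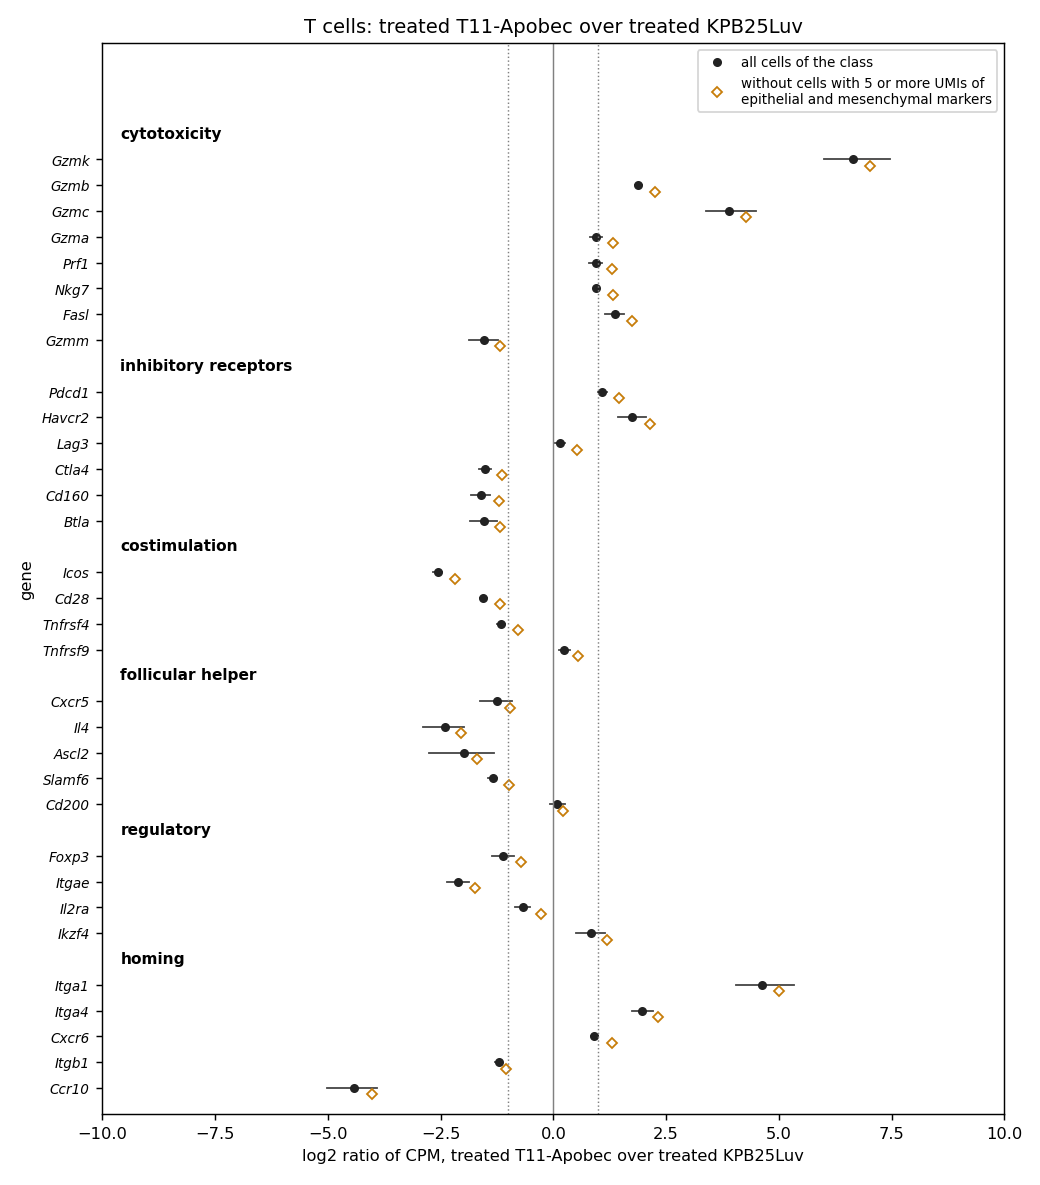
Log2 ratio of CPM in T cells, treated T11-Apobec over treated KPB25Luv (horizontal axis), for genes of 6 groups (vertical axis). Filled points use all T cells with exact 95% counting intervals, and open diamonds leave out cells with 5 or more UMIs of epithelial and mesenchymal markers. Gzmk lies at 6.64 and Ccr10 at -4.43, and dotted lines mark 2-fold.

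The naive and central memory list had 1 of 14 genes at least 2-fold higher and 2 lower, with a median of -0.49. Without tumour-marker cells 2 were higher and 0 lower, with a median of -0.15. Tcf7, the factor of naive and stem-like T cells, had 83.0 CPM in T11-Apobec and 192 CPM in KPB25Luv, log2 -1.21, and -0.90 without tumour-marker cells. Ccr7 had 83.4 and 168 CPM in the same order, log2 -1.01, and -0.64 without tumour-marker cells. CD8 genes marked 38.3% (36.4 to 40.2%) of thinned T cells in T11-Apobec and 35.0% (33.3 to 36.7%) in KPB25Luv. Cd4 marked 8.15% (7.12 to 9.27%) and 7.77% (6.86 to 8.76%) in the same order, and 52.9% and 56.3% of thinned cells showed neither, so a split by these genes missed most cells.

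Of the T cell effector cytokines, Ifng had 65.4 CPM in T11-Apobec and 39.0 CPM in KPB25Luv, log2 0.75, and 1.13 without tumour-marker cells. In the interferon-gamma response list 7 of 21 genes were at least 2-fold higher and 1 lower, with a median of 0.24 and 0.29 without tumour-marker cells. The higher ones were Irf8, Gbp2b, Gbp4, Gbp6, Iigp1, Cxcl9 and Ciita. Outside that list H2-T22, a nonclassical class I molecule of the class I presentation list, had 317 CPM in T11-Apobec and 121 CPM in KPB25Luv, log2 1.39. Type I interferon response genes in T cells had a median of -0.41, and 0.06 without tumour-marker cells. At equal depth 3.84% of thinned T cells held an Mki67 UMI, a gene of cycling cells, in each library.

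Gamma-delta T cell genes moved in both directions. The constant gene Tcrg-C2 had 38.5 CPM in T11-Apobec and 8.32 CPM in KPB25Luv, log2 2.21, whereas Trdc, the delta chain constant gene, had 13.9 and 34.9 CPM in the same order, log2 -1.33, and -0.96 without tumour-marker cells. Genes chosen for the widest separation included Lamb3, a laminin chain, with 0.719 CPM in T11-Apobec and 32.2 CPM in KPB25Luv, and Coro2a, a coronin, with 0.575 and 22.4 CPM. Bcl2a1a, a survival protein with near-identical copies, had 3.52 CPM in T11-Apobec and 49.3 CPM in KPB25Luv. At the higher end, Gas1 and Esm1 had 0 UMIs in KPB25Luv T cells, at least 285-fold and 206-fold higher in T11-Apobec. Both rested largely on tumour-marker cells, since Gas1 came to 2.2 CPM and Esm1 to 11 CPM in T11-Apobec without them, against 49.1 and 35.5 CPM with them.

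The other T cell lists held few genes past 2-fold. T cell receptor signalling had 0 of 15 higher and 1 lower, with a median of -0.48 and -0.10 without tumour-marker cells. Class I presentation had 1 of 17 on each side and a median of 0.20, or 0.30 without tumour-marker cells. Proliferation had 0 of 20 higher and 5 lower, with a median of -0.68. Without tumour-marker cells 0 were higher and 2 lower, with a median of -0.50. Of 6 galectins, sugar-binding proteins, Lgals1 and Lgals3 were at least 2-fold higher and the median was 0.45, or 0.53 with 1 gene higher without tumour-marker cells. Lgals7, a galectin outside that list, had 54.9 CPM in T11-Apobec and 0.803 CPM in KPB25Luv, log2 6.05, from 5.02% and 0.336% of T cells. Tumour markers were carried by 5.28% of T11-Apobec T cells. Lgals7 was not among the highest-ranked genes without those cells, and its ratio without them is not given here. Lgals3 had 698 and 304 CPM in the same order, log2 1.20, and 1.75 without tumour-marker cells. Of 4 Ifitm genes, membrane proteins that block virus entry, 2 were higher, or 4 without tumour-marker cells, and Ifitm3 had 624 CPM in T11-Apobec and 197 CPM in KPB25Luv, log2 1.67.

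Macrophage RNA was found in more lymphocytes of T11-Apobec than of KPB25Luv. Lyz2, a lysozyme of myeloid cells, had 155 CPM in T cells of T11-Apobec and 9.75 CPM in those of KPB25Luv, with a UMI in 48.2% and 4.85% of T cells. In B cells the shares with a Lyz2 UMI were 35.0% in T11-Apobec and 3.23% in KPB25Luv, and in NK cells 39.7% and 6.45%. These shares stand beside the values of H2-Eb1 in T cells and of Ifitm3 and Lgals1 in B cells, and their part in those values was not tested.

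In B cells of treated T11-Apobec 3 of 11 activation genes and 3 of 11 class II genes were at least 2-fold lower than in those of KPB25Luv, beside wide differences in Ly6 family genes. Of 5139 genes measured in B cells, 240 (4.67%) were at least 2-fold higher in T11-Apobec and 153 (2.98%) lower, which is 7.65% either way. Without the 7 T11-Apobec B cells that carried tumour markers these were 128 higher and 132 lower. The 14 naive follicular genes had a median of -0.10, with 0 higher and 1 lower, and the 14 B cell receptor signalling genes a median of -0.37, with none past 2-fold. No germinal centre gene reached the minimum of 50 UMIs.

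Of 11 measured B cell activation genes, 3 were at least 2-fold lower and 0 higher, with a median of -0.53 and -0.48 without tumour-marker cells. Cd86, a ligand of CD28 and CTLA4, had 48.2 CPM (37.9 to 60.5 CPM) in T11-Apobec and 141 CPM (121 to 164 CPM) in KPB25Luv, log2 -1.54. Cd69, an early activation antigen, had 210 and 462 CPM in the same order, log2 -1.13. Nfkbid, a regulator of NF-kappaB, had 27.4 CPM in T11-Apobec and 112 CPM in KPB25Luv, log2 -2.02. In the untreated libraries Cd69 had a log2 ratio of 0.21, on 146 T11-Apobec B cells. Cd86 had a log2 ratio of 1.0 there, but it fell under the UMI minimum for a measured gene. Its untreated direction therefore cannot be set against the treated one.

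Class II genes other than H2-Eb1 were lower or within 2-fold. Of 11 measured, 1 was higher and 3 lower, with a median of -0.60. Without tumour-marker cells 1 was higher and 1 lower, with a median of -0.45. Cd74, the invariant chain, had 15470 CPM in T11-Apobec and 31210 CPM in KPB25Luv, log2 -1.01, and -0.87 without tumour-marker cells. H2-Aa had 7148 and 11910 CPM in the same order, log2 -0.74. H2-Eb1 was thus the exception to this direction in B cells.

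Ly6d, a surface protein of B cells, had 189 CPM (168 to 212 CPM) in T11-Apobec and 1955 CPM (1877 to 2035 CPM) in KPB25Luv, log2 -3.37. A Ly6d UMI was found in 21.3% of B cells in T11-Apobec and 90.7% in KPB25Luv. Ly6e had 565 CPM in T11-Apobec and 2517 CPM in KPB25Luv, log2 -2.16, and Ly6k had 0 UMIs in T11-Apobec, at least 25.4-fold lower. The Ly6 list had a median of -2.16 in treated and -2.64 in untreated B cells. Serinc3, a membrane protein that restricts retroviruses, had 91.2 CPM in T11-Apobec and 483 CPM in KPB25Luv, log2 -2.40, against 0.15 in the untreated libraries.

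Genes higher in B cells of T11-Apobec included Sapcd1, with 108 CPM in T11-Apobec and 0.815 CPM from 1 UMI in KPB25Luv, log2 6.47 (4.55 to 12.4). Smc6, a subunit of a DNA repair complex, had 575 CPM in T11-Apobec and 204 CPM in KPB25Luv, log2 1.5. Of 16 interferon-gamma response genes 5 were higher and 1 lower, with a median of 0.30. Ifitm3 (log2 4.09) and Lgals1 (4.09) fell back to 2.16 and 1.89 without tumour-marker cells. Most heavy constant UMIs of B cells came from Ighm, 68.1% (66.7 to 69.5%) in T11-Apobec and 63.1% (61.7 to 64.5%) in KPB25Luv, and Ighd made up 29.3% and 30.8%. Some switched chains took less in T11-Apobec, with Ighg1 at 1.63% (1.27 to 2.05%) in T11-Apobec and 3.69% (3.18 to 4.27%) in KPB25Luv, and Ighg3 at 0.367% and 1.74%. Ighe had 0 UMIs in T11-Apobec and 11 in KPB25Luv. Ighg2b did not take less, at 0.596% (0.390 to 0.872%) in T11-Apobec and 0.415% (0.254 to 0.640%) in KPB25Luv. Igha held 2 and 0 UMIs in the same order.

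Plasma cells of both libraries used mostly IgG1, and for each heavy chain class the intervals of the shares of cells overlapped. Of cells with at least 10 heavy chain UMIs, 36 in T11-Apobec and 66 in KPB25Luv, each cell took a median of 99.7% and 99.6% of them from 1 constant gene. IgG1 (Ighg1) was the main chain in 23 cells, 63.9% (46.2 to 79.2%), in T11-Apobec and in 49 cells, 74.2% (62.0 to 84.2%), in KPB25Luv. Heavy chain UMIs of these Ighg1 cells ran from 11 to 4138 in T11-Apobec and from 10 to 2938 in KPB25Luv. In KPB25Luv a large part of them held at most 69, and the others at least 294. In T11-Apobec a smaller part held at most 53, and the others at least 195. Cells with Ighm as main chain held 252 to 1065 in T11-Apobec. In KPB25Luv they held 13 to 91, apart from 1 cell with 1491. In T11-Apobec 4 cells used Ighg3, 3 used Ighg2c and 2 used Ighg2b. None of the 66 KPB25Luv cells used any of these, and a count of 0 allows a share of up to 4.55% for each by the floor of 3 counts, while the exact interval reaches 5.44%.

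IgE, the class of mast cell-driven responses, was the main chain in 1 cell, 2.78% (0.0703 to 14.5%), in T11-Apobec and in 7 cells, 10.6% (4.37 to 20.6%), in KPB25Luv. Ighe took 1.10% of heavy chain UMIs in T11-Apobec and 19.2% in KPB25Luv, where the largest cell held 28.5% of them. Ighg3 took 14.9% of UMIs in T11-Apobec and 0.0163% in KPB25Luv, and Ighg2b 11.8% and 0.0204%. These UMI shares rested on few cells of T11-Apobec, where the largest cell held 47.1% of Ighg3, 55.7% of Ighg2b, 70.9% of Ighg2c and 100% of Ighe UMIs. With cells included that also carried markers of a second class, 5 of 46 cells in T11-Apobec and 0 of 117 in KPB25Luv used Ighg3, and here the intervals did not overlap, at 3.63 to 23.6% in T11-Apobec and 0 to 3.10% in KPB25Luv. In the same order 3 and 2 cells used Ighg2b, 5 and 1 used Ighg2c, and 1 and 7 used Ighe. BALB/c mice carry Ighg2a where the mm10 strain carries Ighg2c, and the effect of such alleles on counting was not tested.

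**Figure D3:**
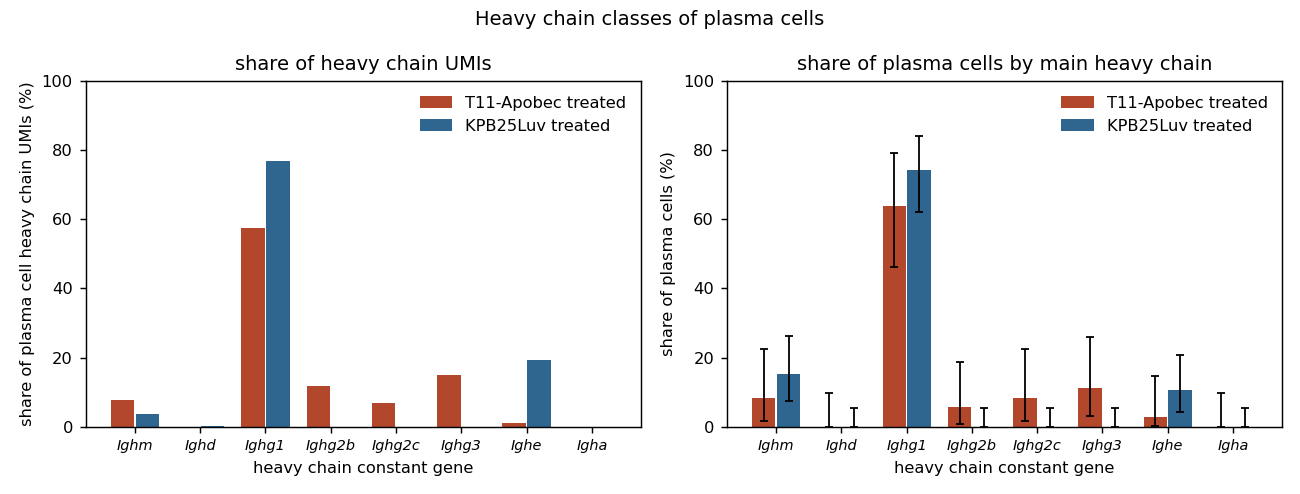
Heavy chain constant genes (horizontal axes) in plasma cells of the treated libraries. The left panel gives each gene's share of heavy chain UMIs (%), and the right panel the share of cells (%) by main heavy chain with exact 95% intervals, for 36 T11-Apobec and 66 KPB25Luv cells. Ighg1 leads in both, the intervals of the shares of cells overlap for each gene, and Ighe is 10.6% of KPB25Luv cells.

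Of 2899 genes measured in plasma cells, 36 (1.24%) were at least 2-fold higher in T11-Apobec and 442 (15.2%) lower, or 16.5% either way, and the median of all genes was -0.35. Immunoglobulin UMIs took a larger part of the T11-Apobec cells, with heavy constant genes at 680 and 476 per 10000 UMIs in T11-Apobec and KPB25Luv. Scaled by median of ratios the median of all genes was -0.12, with 72 higher and 252 lower. The proliferation list had 8 of 20 genes at least 2-fold lower and 0 higher, with a median of -0.65. Mcm6, a subunit of the replicative helicase, had 30.6 CPM in T11-Apobec and 144 CPM in KPB25Luv, log2 -2.19. Stmn1, a microtubule regulator of dividing cells, had 97.9 and 415 CPM in the same order, log2 -2.07. The 10 B cell check genes summed to 624 CPM in T11-Apobec plasma cells and 1235 CPM in KPB25Luv ones. The 10 plasma cell check genes summed to 7289 and 5015 CPM in the same order. The part of cells with few heavy chain UMIs in these differences was not tested.

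The secretory programme of plasma cells was within 2-fold for 18 of 19 genes, with a median of 0.32. Xbp1, its main transcription factor, had 1165 CPM in T11-Apobec and 765 CPM in KPB25Luv, log2 0.61. Ly6c2 had 1346 CPM (1246 to 1453 CPM) in T11-Apobec and 96.2 CPM (78.2 to 117 CPM) in KPB25Luv, log2 3.8, and led the genes higher in T11-Apobec by the interval end nearest 0. Serinc3 was lower as in B cells, with 95.9 CPM in T11-Apobec and 535 CPM in KPB25Luv, log2 -2.47.

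NK cells of treated T11-Apobec were higher in granzymes, while perforin was within 2-fold. Of 2601 measured genes, 101 (3.88%) were at least 2-fold higher and 125 (4.81%) lower, or 8.69% either way, on 325 T11-Apobec and 62 KPB25Luv cells. Of these, 87 of the higher and 125 of the lower genes had a counting interval that excluded equality. Scaled by median of ratios, 170 were higher and 62 lower, with a median of all genes of 0.16 in place of -0.07. Of 17 cytotoxicity genes, 6 were higher and 1 lower, with a median of 0.30. Gzma had 13050 CPM (12800 to 13300 CPM) in T11-Apobec and 5174 CPM (4832 to 5535 CPM) in KPB25Luv, log2 1.33. Gzmb had 1544 and 678 CPM in the same order, log2 1.18, and Ccl5 20510 and 10090 CPM, log2 1.02. Prf1 (895 CPM in T11-Apobec and 806 in KPB25Luv) and Nkg7 (3917 and 3751 CPM) were within 2-fold.

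Some NK differences sat in few cells. Gzmc had 2579 CPM in T11-Apobec, from 10.8% of its NK cells, and 6.11 CPM from 1 UMI in KPB25Luv, log2 8.14 (6.24 to 14.0). Gzmf had 429 CPM from 2.46% of T11-Apobec NK cells and 0 UMIs in KPB25Luv, at least 23.4-fold higher. Gzmk, so far apart in T cells, had 65.5 CPM in T11-Apobec NK cells and 0 UMIs in KPB25Luv, at least 3.57-fold higher. T cell check genes summed to 1883 CPM in T11-Apobec NK cells and 2438 CPM in KPB25Luv ones, and their part in these values was not tested.

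Ly49 receptors, which read class I molecules, differed gene by gene. Klra3 had 375 CPM in T11-Apobec and 24.4 CPM in KPB25Luv, log2 3.77, whereas Klra4 had 28.4 and 751 CPM in the same order, log2 -4.70. The Klra genes are near-identical copies that vary between strains, so the split of UMIs among them is uncertain. The activating receptor Ncr1, a class marker, was level at 1624 CPM in T11-Apobec and 1821 CPM in KPB25Luv.

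Several surface and cytokine genes were lower in T11-Apobec NK cells. Cd7 had 417 CPM in T11-Apobec and 1497 CPM in KPB25Luv, log2 -1.84, and the interleukin-7 receptor Il7r had 55.6 and 232 CPM, log2 -2.07. Ifng was lower in NK cells, with 71.6 CPM (54.4 to 92.6 CPM) in T11-Apobec and 177 CPM (119 to 254 CPM) in KPB25Luv, log2 -1.32, opposite in sign to its T cell value of 0.75. Tbx21, the T-bet factor that drives Ifng, had a log2 ratio of -1.37. Thy1 had 275 CPM in T11-Apobec and 18.3 CPM in KPB25Luv, log2 3.69 (2.34 to 6.20) on 3 KPB25Luv UMIs.

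Monocytes/macrophages of treated T11-Apobec were higher in complement C1q, resident macrophage and cell cycle genes, and lower in classical monocyte and type I interferon response genes. Of 7879 measured genes, 853 (10.8%) were at least 2-fold higher and 569 (7.22%) lower, 18.0% either way, and the median of all genes was 0.03. Counting intervals excluded equality for 614 of the higher and 532 of the lower genes. The class held 664 cells with a median of 8584 UMIs in T11-Apobec and 120 cells with 4102 in KPB25Luv. Depth was not made equal in this class, so the shares of cells with a UMI of a gene, given below, cannot be compared directly. The defining receptor Csf1r was level, with 398 CPM in T11-Apobec and 337 CPM in KPB25Luv, and the macrophage antigen Adgre1 had 156 and 85.5 CPM, log2 0.85.

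Of 11 measured classical monocyte genes, 9 were at least 2-fold lower and 0 higher, with a median of -2.11 in treated and -3.09 in untreated libraries. Ly6c2, the surface mark of inflammatory monocytes, had 186 CPM (176 to 197 CPM) in T11-Apobec and 1294 CPM (1203 to 1391 CPM) in KPB25Luv, log2 -2.80. It was detected in 22.1% of cells in T11-Apobec and 62.5% in KPB25Luv. Plac8 had 657 and 2917 CPM in the same order, log2 -2.15, and Chil3, a chitinase-like protein, 22.9 and 469 CPM, log2 -4.36. Ccr2, the receptor that brings monocytes out of the marrow, was an exception at 233 CPM in T11-Apobec and 187 CPM in KPB25Luv, log2 0.31.

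Resident macrophage genes leaned the other way, with 7 of 13 higher and 3 lower and a median of 1.0. Cx3cr1, the fractalkine receptor, had 233 CPM in T11-Apobec and 10.5 CPM in KPB25Luv, log2 4.36 (3.35 to 5.93), and it was detected in 58.3% and 3.33% of cells. Sparc was lower in all cells at -3.54 but 0.51 without the cells that carried tumour markers, of which there were 20 in T11-Apobec and 3 in KPB25Luv.

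The 3 chains of C1q, the recognition molecule of the classical complement pathway, were all higher in T11-Apobec. Among 11 complement genes 5 were higher and 2 lower, and their median was 0.42. C1qa had 6236 CPM (6175 to 6299 CPM) in T11-Apobec and 1129 CPM (1043 to 1219 CPM) in KPB25Luv, log2 2.47. C1qb and C1qc had log2 ratios of 2.58 and 2.84, and C1qa was detected in 84.8% of cells in T11-Apobec and 24.2% in KPB25Luv. In the untreated libraries the 3 log2 ratios were 0.73, 0.92 and 0.89. C4b, a complement protein, had 88.0 CPM in T11-Apobec and 5.23 CPM from 3 UMIs in KPB25Luv, log2 3.85 (2.52 to 6.35). C5ar1, the receptor for the anaphylatoxin C5a, was lower, with 142 CPM in T11-Apobec and 356 CPM in KPB25Luv, log2 -1.33.

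Of 12 measured chemokines of monocytes and T cells, 4 were at least 2-fold higher and 1, Pf4, lower, with a median of 0.36. Cxcl13, which attracts B cells, had 281 CPM in T11-Apobec, in 12.7% of cells, and 0 UMIs in KPB25Luv, at least 53.7-fold higher, and it lies at chr5:95956951-95961068 (plus strand). The monocyte attractants Ccl12 and Ccl8 had log2 ratios of 2.47 and 1.93, with Ccl8 at 3756 CPM in T11-Apobec and 987 CPM in KPB25Luv. Cxcl9, an interferon-gamma-induced attractant of T cells, had 642 CPM in T11-Apobec and 229 CPM in KPB25Luv, log2 1.48. Of 10 measured inflammatory mediators, 5 were lower and 0 higher, with a median of -1.19. Among them the neutrophil attractant Cxcl2 was lower, with 119 CPM in T11-Apobec and 1057 CPM in KPB25Luv, log2 -3.15. The inflammatory cytokine Il1b had 62.2 and 640 CPM in the same order, log2 -3.36. Markers of other cells moved with these values. The 8 neutrophil check genes, which include Il1b, summed to 182 CPM in T11-Apobec and 1104 CPM in KPB25Luv, with S100a9, Cxcr2 and Retnlg at 0 UMIs in KPB25Luv. Il1b itself gave most of the KPB25Luv sum, and the sum without it is not given here. The 10 mesenchymal check genes summed to 770 and 3916 CPM in the same order, and without tumour-marker cells Il1b had a log2 ratio of -3.38 and Cxcl2 of -3.16. The part of neutrophil RNA was not tested.

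Of 11 measured alternative activation genes, 7 were at least 2-fold lower and 2 higher, with a median of -1.75. Arg1, the arginine-degrading enzyme of suppressive macrophages, had 1193 CPM (1166 to 1220 CPM) in T11-Apobec and 4002 CPM (3840 to 4169 CPM) in KPB25Luv, log2 -1.75. It was detected in 61.1% and 59.2% of cells, at medians of 8584 and 4102 UMIs per cell. Depth was not made equal, so these shares cannot be compared directly. Retnla and Ccl17 were much higher in KPB25Luv, but in each their UMIs came from 1.67% of its 120 cells. Cd274, encoding the PD1 ligand PD-L1, had 33.4 CPM (29.1 to 38.3 CPM) in T11-Apobec and 78.5 CPM (57.3 to 105 CPM) in KPB25Luv, log2 -1.24.

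Lipid handling genes were split. Of 13 measured lipid-associated macrophage genes, 2 were higher and 2 lower, with a median of -0.17. Lpl, the lipoprotein lipase, had 126 CPM in T11-Apobec and 8.72 CPM in KPB25Luv, log2 3.71 (2.62 to 5.48). Trem2, a lipid-sensing receptor, had 509 and 216 CPM in the same order, log2 1.23. The fatty acid carrier Fabp5 was lower, with 172 CPM in T11-Apobec and 733 CPM in KPB25Luv, log2 -2.09. Apoe, the apolipoprotein that macrophages secrete, was level at 8663 CPM in T11-Apobec and 7506 CPM in KPB25Luv.

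Class II genes in monocytes/macrophages did not follow the lower levels seen in B cells. Of 8 measured, 1 (H2-Eb1) was higher and 0 lower, with a median of 0.42. H2-Aa had 7887 CPM in T11-Apobec and 7197 CPM in KPB25Luv, and Cd74 had 14050 and 14730 CPM in the same order. Cathepsin and lysosome genes had 3 of 14 higher, 0 lower and a median of 0.32.

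Genes with the widest separation downward included Ifitm1, with 19.03 CPM in T11-Apobec and 1071 CPM in KPB25Luv, log2 -5.81. The protease inhibitor Slpi had 23.4 CPM in T11-Apobec and 560 CPM in KPB25Luv, log2 -4.58, and the leptin receptor Lepr 12.6 and 377 CPM, log2 -4.89. Prdx6, an antioxidant enzyme, had 109 and 1076 CPM in the same order, log2 -3.30. All 4 were also lower in the untreated libraries, at -3.74, -4.72, -1.48 and -2.10. Upward, the protease Plau had 72.1 CPM in T11-Apobec and 1.74 CPM from 1 UMI in KPB25Luv, log2 4.79 (2.88 to 10.7), and 3.96 in the untreated libraries.

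Cell cycle genes were higher in monocytes/macrophages of T11-Apobec. Of 20 proliferation genes, 17 were at least 2-fold higher and 0 lower, with a median of 1.71. The untreated libraries had a median of 0.37, without the cells that carried tumour markers, which the treated value includes. Top2a, a DNA topoisomerase of dividing cells, had 110 CPM in T11-Apobec and 6.98 CPM in KPB25Luv, log2 3.81 (2.61 to 5.86). Birc5, a mitotic survival protein, had 159 and 22.7 CPM in the same order, log2 2.76. Top2a was detected in 20.5% of cells in T11-Apobec and 2.50% in KPB25Luv.

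Of 16 measured type I interferon response genes, 12 were at least 2-fold lower in T11-Apobec and 1 higher, with a median of -1.91. Isg15, a ubiquitin-like antiviral protein, had 96.3 CPM (88.8 to 104 CPM) in T11-Apobec and 544 CPM (486 to 608 CPM) in KPB25Luv, log2 -2.50. Ifit1, which binds viral RNA, had 17.9 CPM in T11-Apobec and 80.2 CPM in KPB25Luv, log2 -2.17. Rsad2, the antiviral enzyme viperin, had 6.72 CPM (4.84 to 9.08 CPM) and 22.7 CPM (12.1 to 38.8 CPM) in the same order, log2 -1.79. All 3 were lower in T11-Apobec, on 13 UMIs of Rsad2 in KPB25Luv.

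Irf7, the factor that amplifies this response, had 83.2 CPM in T11-Apobec and 283 CPM in KPB25Luv, log2 -1.77. Ifi44 was the 1 gene past 2-fold the other way, with 49.1 CPM in T11-Apobec and 19.2 CPM in KPB25Luv, log2 1.29. In the untreated libraries the list had a median of 0.94 over 17 genes, with log2 ratios of 0.16 for Isg15, 1.49 for Ifit1, 3.41 for Rsad2 and 1.56 for Irf7. Interferon-gamma response genes were less one-sided in the same cells, with 2 of 20 higher, 5 lower and a median of -0.20.

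The promoters of Isg15, Ifit1 and Rsad2 are shown because these 3 genes moved together and because interferon-stimulated genes are known to be switched on through a shared element. The 250 bases before each gene's start are from RefSeq, GRCm38.p6, at chr4:156200819-156201068 (minus strand), chr19:34640639-34640888 (plus strand) and chr12:26456453-26456702 (minus strand). Capitals mark matches to GAAANNGAAA on either strand, overlapping matches joined, which came to 3, 2 and 1.
Isg15: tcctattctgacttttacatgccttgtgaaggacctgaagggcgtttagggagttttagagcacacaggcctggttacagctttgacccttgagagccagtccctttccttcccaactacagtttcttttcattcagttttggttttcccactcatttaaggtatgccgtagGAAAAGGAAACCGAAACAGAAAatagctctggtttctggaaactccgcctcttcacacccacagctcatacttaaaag
Ifit1: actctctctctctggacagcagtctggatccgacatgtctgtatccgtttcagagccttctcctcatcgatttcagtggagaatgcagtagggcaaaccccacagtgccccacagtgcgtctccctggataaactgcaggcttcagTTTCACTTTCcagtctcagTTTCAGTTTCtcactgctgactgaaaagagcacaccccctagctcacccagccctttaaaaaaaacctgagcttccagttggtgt
Rsad2: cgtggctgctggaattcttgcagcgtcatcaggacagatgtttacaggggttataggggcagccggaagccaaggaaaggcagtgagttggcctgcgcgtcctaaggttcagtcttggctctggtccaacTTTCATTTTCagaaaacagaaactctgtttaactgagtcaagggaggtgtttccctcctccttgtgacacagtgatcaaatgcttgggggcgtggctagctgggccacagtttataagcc
The motif was then counted over a longer window than the one printed, which also took in the 50 bases after the start. It was found there in 952 of 27025 promoters (3.52%). Of the 20 type I interferon response genes, 15 had a promoter in the table, and 7 of those (46.7%) held it in that window. For the interferon-gamma response list these were 10 of 16 (62.5%), although that list had a median of -0.20 in monocytes/macrophages. A match describes the letters of the reference strain and does not show that a factor binds there.

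**Figure D4:**
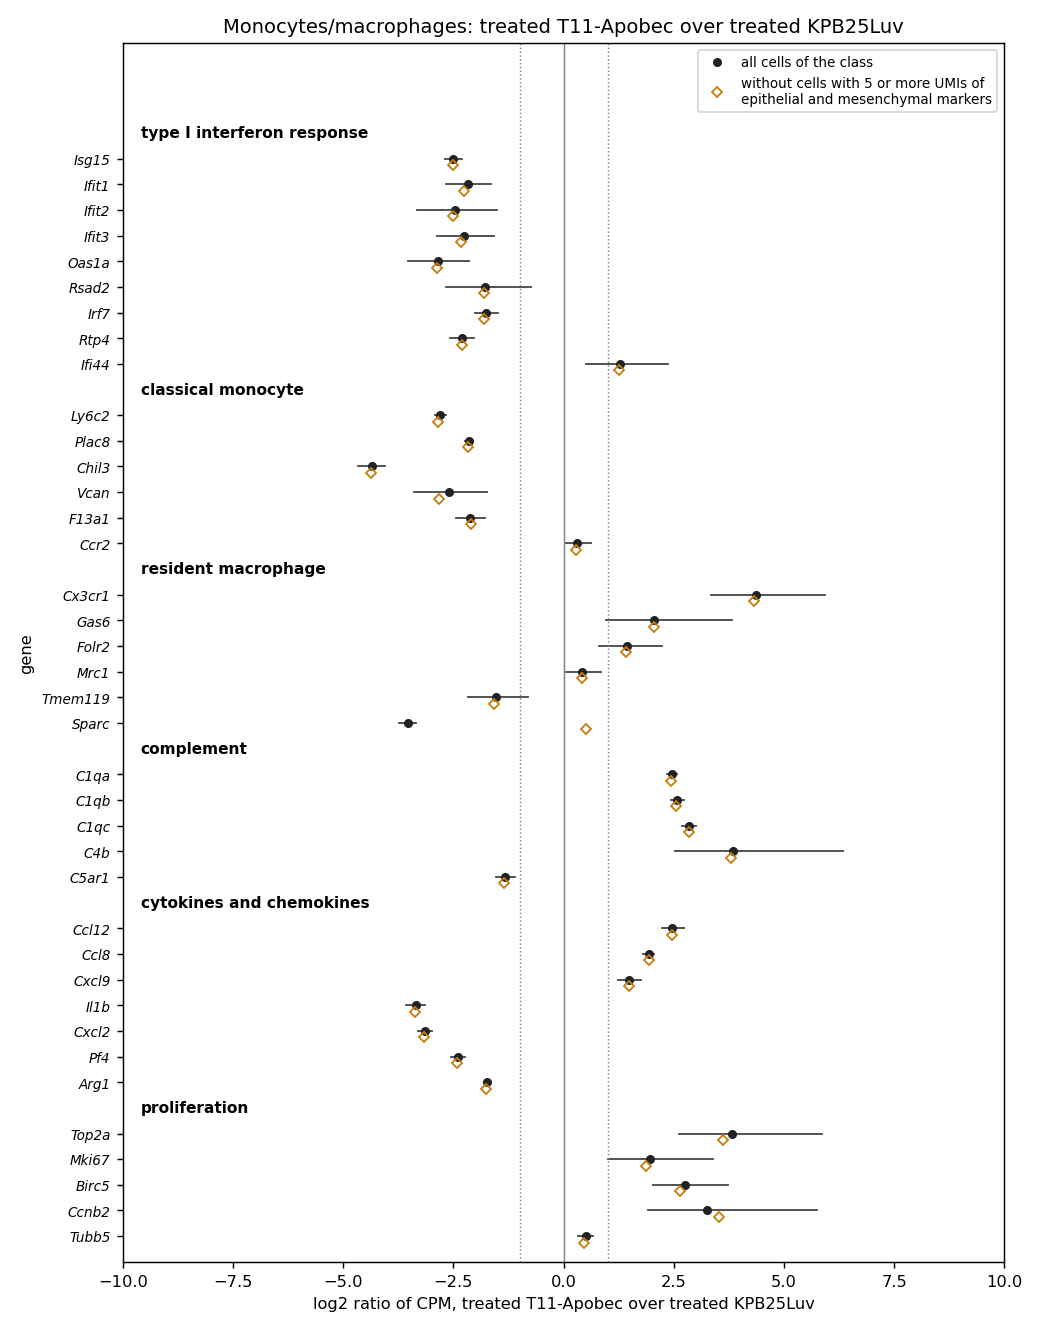
Log2 ratio of CPM in monocytes/macrophages, treated T11-Apobec over treated KPB25Luv (horizontal axis), for genes of 6 groups (vertical axis). Filled points use all cells of the class with exact 95% counting intervals, and open diamonds leave out cells with 5 or more UMIs of epithelial and mesenchymal markers. Isg15 lies at -2.50 and C1qc at 2.84, and dotted lines mark 2-fold.

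The direction of several lists differed between treated and untreated libraries. Because many untreated KPB25Luv cells carried tumour markers, such cells were left out on both sides of this comparison. The inhibitory receptor list in T cells had a median of -0.16 in the treated libraries and 1.75 in the untreated ones. Cytotoxicity genes in T cells had medians of 1.21 and 0.49 in the same order, and classical monocyte genes in monocytes/macrophages were low in both. In T cells these untreated medians rest on fewer genes, since the untreated T11-Apobec library left 373 T cells. The difference between the treated and the untreated contrast was not tested.

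**Figure D5:**
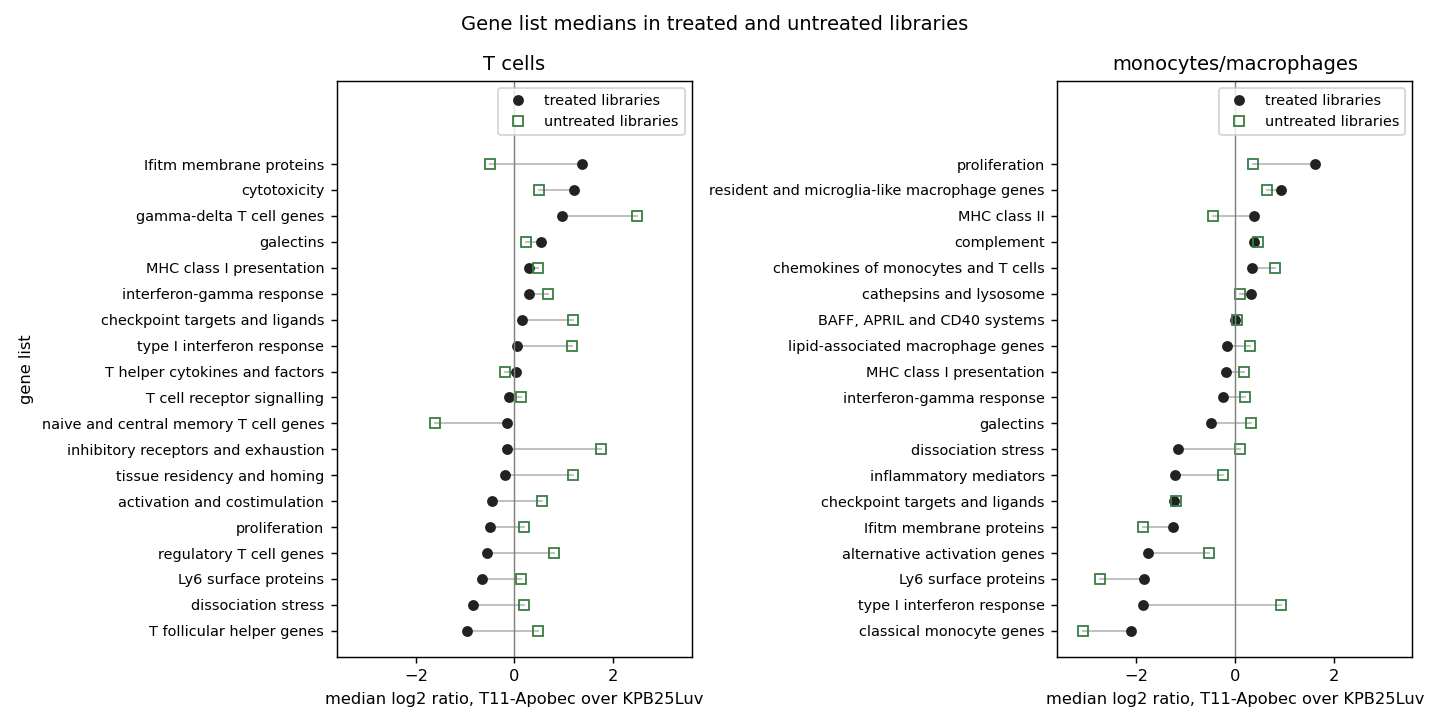
Median log2 ratio of each gene list, T11-Apobec over KPB25Luv (horizontal axis), in T cells (left) and monocytes/macrophages (right), with lists down the vertical axis. Filled points are the treated and open squares the untreated libraries, both without cells with 5 or more UMIs of epithelial and mesenchymal markers, and a line joins them. The type I interferon list in monocytes/macrophages lies at -1.86 treated and 0.94 untreated.

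Dissociation stress genes, which enzymatic tissue digestion raises, had medians below 0 in each class. These were -0.78 in T cells (-0.83 without tumour-marker cells), -0.67 in B cells, -1.13 in NK cells, -1.16 in monocytes/macrophages and -0.08 in plasma cells. In plasma cells the median of all genes was lower still, at -0.35. Fos, an early-response factor, had 371 CPM in monocytes/macrophages of T11-Apobec and 1008 CPM in those of KPB25Luv, log2 -1.44, and log2 -1.65 in T cells. The part of tissue handling in the other differences was not tested.

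A neomycin resistance gene had been added to the feature table. It had 1167 UMIs in 388 cells of T11-Apobec and 0 in KPB25Luv, and 899 of the UMIs lay in cells with mesenchymal markers. In T cells of T11-Apobec 68 cells held 165 of its UMIs.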

How the data were processed

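Single-cell RNA of dissociated tumours was read as deposited UMI counts for each gene in each cell barcode. Per the file headers, Cell Ranger 3.0.2 had made the matrices, and the genome was mm10 per the submitters' processing notes. Among 31054 features, 1 was an added neomycin resistance gene. Doublet removal or other filtering before deposit is not given in the sources used here. Strand use in counting is not given either, so overlapping genes could not be told apart.

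The filters on cells removed 107 barcodes in T11-Apobec and 8 in KPB25Luv for under 200 genes, and then 266 and 228 for over 10% mitochondrial UMIs. A cell entered a class with at least 2 marker UMIs (5 from at least 2 genes for plasma cells) and no other class past its minimum. Scrublet's own threshold marked 10 cells in T11-Apobec and 9 in KPB25Luv and was taken not to have worked, so removal of the highest scores, 319 and 232 cells, was run as an alternative. Kept cells held 46226362 UMIs in T11-Apobec and 30051473 in KPB25Luv. Counts were summed per class and library and divided by the class total (CPM, on a scale of 1000000). Intervals were Clopper-Pearson for shares, exact Poisson for CPM and exact conditional binomial for log2 ratios, which had 0.5 added counts. A gene was measured at 50 UMIs in the 2 libraries together and named 2-fold apart at a log2 ratio of 1 or more either way. Bounds against 0 UMIs took 3 counts per library and class as the floor. PCR duplicates are collapsed by UMIs, but cells of 1 library are not replicates, so intervals cover counting error only.

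Named genes were the 8 highest and 8 lowest shared genes, the 8 (6 in NK and plasma cells) highest and lowest of each class by the interval end nearest 0, and members of the gene lists. Mitochondrial, ribosomal protein, immunoglobulin, T cell receptor, histone, sex-linked and unnamed genes were left out of the ranked part. There were 37 lists with 456 genes, 5 of them absent from the table. The members, classes and lists were chosen with earlier results of these data known. Genes from the ranking and lists that are described in the text were picked from these after their values were seen. A few genes met by these choices are not reported here. Untreated values for genes leave out cells with 5 or more UMIs of epithelial and mesenchymal markers. Treated values beside them include such cells unless stated. Scripts ran in Python 3.11.15 with numpy 2.4.6, scipy 1.17.1, pandas 2.3.3, scanpy 1.11.5 and matplotlib 3.10.9, and were tested on simulated data. Positions are from the GRCm38 annotation and promoter sequences from RefSeq.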

Additional observations from a re-analysis of the deposited data

Results flagged for a closer look

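Several gene list medians lay on one side of 0 in the treated libraries and on the other in the untreated ones. All are log2 ratios of T11-Apobec over KPB25Luv with 1 library per group, and the difference between the treated and the untreated contrast was not tested. In T cells the regulatory T cell list had a median of -0.92 over 15 genes in the treated libraries, or -0.56 without cells that carried tumour markers, and 0.8 over 10 genes in the untreated ones. The activation and costimulation list had -0.83 over 15 genes, or -0.45 without such cells, and 0.55 over 13 genes in the untreated libraries. The tissue residency and homing list had -0.6 over 15 genes, or -0.19 without such cells, and 1.19 over 10 genes in the untreated libraries. In monocytes/macrophages the type I interferon response list had -1.91 over 16 genes, or -1.86 without such cells, and 0.94 over 17 genes in the untreated libraries.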

How the results depend on the processing

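Leaving out a replicate could not be done, since each group was 1 library. No paired analysis was possible because each group held 1 library and there was no test to block. Of 55 alternative values for class shares, 45 stayed within the interval of the value reported, as did 731 of 816 for list medians and 1601 of 1764 for named genes. The log2 ratio of T cell shares, -0.38, was -0.03 with markers at 1 UMI, -0.31 with at most 5% mitochondrial UMIs, -0.52 over all kept cells and -0.58 without Ms4a6c. For B cells, 0.62 became 1.22 at 1 UMI, 0.29 in thinned cells, 0.28 with mixed cells put in the class with most marker UMIs, 0.39 without Ms4a6c and 0.28 with both. For monocytes/macrophages thinning gave 2.12 in place of 2.39. Genes 2-fold apart, 1741 in T cells, were 443 in thinned cells, 6277 with a minimum of 1 UMI and 850 without tumour-marker cells. In B cells 393 became 160 thinned, 857, 172 and 4491 at minimums of 20, 100 and 1 UMIs, and 260 without tumour-marker cells. In plasma cells 478 became 39 thinned, 1096, 213 and 4182 at those minimums, and 310 (80 higher, 230 lower) with immunoglobulin, T cell receptor, mitochondrial and ribosomal genes out of the total. In NK cells 226 became 79 thinned, and 801, 74 and 3426 at those minimums. In monocytes/macrophages 1422 became 329 thinned, and 2166, 883 and 5623 at those minimums. Thinning and the minimums change how many genes are measured, which moves these counts by construction. Median-of-ratios scaling moved the median of all genes in NK cells to 0.16 from -0.07, with 170 higher and 62 lower. In monocytes/macrophages it moved that median to 0.14 from 0.03. Among list medians of at least 0.5 and the top-ranked genes, signs turned for Ipmk in plasma cells when thinned (-0.3), for the Ly6 list in NK cells with markers at 3 UMIs (-0.03), and for Hmga2 in monocytes/macrophages without tumour-marker cells (-0.4). Leaving out those cells also turned the signs of Sparc (0.51) and Ly6c1 (0.75) in monocytes/macrophages and of Oasl1 (1.88) and Ly6d (-0.84) in T cells, and in T cells the smaller medians of the type I interferon (0.06), T helper cytokine (0.03) and checkpoint (0.15) lists. The cause of the other moves was not tested. Depth is limited by the 62 NK cells and 120 monocytes/macrophages of KPB25Luv and the 41 plasma cells of T11-Apobec.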
